A study of Mus musculus with 8 samples.

Results

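Solute carriers are the membrane proteins that move amino acids, sugars, nucleotides, metals, ions, vitamins and lipids across the plasma membrane and the membranes of organelles. The members described here are the genes of the deposited count table whose symbols begin with Slc and a family number, leaving out 7 symbols (Slc2a1, Slc2a3, Slc16a3, Slc7a11, Slc27a2, Slc11a1 and Slc40a1), with 10 or more counts in at least 3 of the 8 libraries. Of 18187 symbols in the table, 213 matched before the count filter and 167 passed it. All 167 were also among the 13278 genes tested between the groups. The 46 symbols under the filter reached a median of 33 counts in their highest library, and no more than 265. Of the 167 members, 161 have the symbol of a carrier and fall into 45 families, which were gathered into 14 substrate classes by family number. The other 6 symbols are named after a carrier but do not stand for a carrier themselves, such as the scaffold gene Slc9a3r1.

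The libraries are bulk RNA sequencing of samples labelled as mouse neutrophils, with B16, a mouse melanoma line, as the tumor. They were treated with aOX40, an antibody against the T cell costimulatory receptor OX40 (3 libraries, replicates 1 to 3), or with IgG, the control antibody (5 libraries, replicates 2 to 6). The labels give no strain, age, dose or times, nor the way the neutrophils were isolated or whether each library came from its own animal. The p-values therefore reflect the spread between the libraries deposited, which may be technical.

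Solute carriers are grouped by sequence into numbered families, and a family often shares a kind of substrate. Some let a substrate run down its gradient, and others exchange substrates or couple uptake to sodium or protons. Leukocytes use them to take up fuel and amino acids, to set the pH and metal content of phagosomes and lysosomes, and to move metabolites in and out of mitochondria.

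Total counts ran from 52.7 to 73.5 M (M, mega) per library. They were higher in aOX40, at 69.6 to 73.5 M against 52.7 to 63.2 M in IgG, and aOX40 libraries showed 140 to 158 members with 10 counts or more against 131 to 145. Levels are given in CPM, counts per M counts scaled with TMM factors. These factors were 1.07 to 1.27 in aOX40 and 0.87 to 0.98 in IgG. Levels in aOX40 are therefore lower, relative to IgG, than with total counts alone. Overlap between the groups is judged on the TMM-scaled levels unless stated. Of 12 neutrophil markers, 11 were in the table, and they summed to 16756 to 24610 CPM in aOX40 and 16147 to 27929 CPM in IgG. Of those 11, Mmp8 and Mmp9 rose (log2 fold changes 1.19 and 1.28, adjusted p of 0.0443 and 0.0467, edgeR). The macrophage and monocyte markers (10 of 11 in the table) summed to 1084 to 1527 CPM in aOX40 and 1403 to 2037 CPM in IgG. Within that list Adgre1 rose (log2 fold change 1.81, adjusted p = 0.0248) and Cd68 fell (-0.99, adjusted p = 0.0362, edgeR). Most of the sum was Cd68 (means of 639 and 1272 CPM) and Ly6c2 (547 and 425 CPM). Csf1r, at 51.2 and 17.5 CPM, was higher without overlap but missed the threshold (log2 fold change 1.54, adjusted p = 0.0546, edgeR). The median log2 fold change of the 10 markers was 0.50, so the lower sum does not stand for the list. Dendritic cell markers (5 of 7) summed to 11.3 to 20.2 CPM in aOX40 and 22.5 to 41.0 CPM in IgG. Most of that was Itgax, with means of 15.4 and 30.9 CPM (adjusted p = 0.0697, edgeR). Erythroid markers (6 of 6) summed to 99.6 to 864 CPM and 8.17 to 520 CPM. Fibroblast markers (3 of 6) summed to 1.22 to 3.63 CPM in aOX40 and 3.45 to 32.4 CPM in IgG, where Col1a1 fell (log2 fold change -3.09, adjusted p = 0.0414, edgeR). Endothelial markers (2 of 5) summed to 3.87 to 9.57 CPM and 7.05 to 27.5 CPM, and neither was called. Melanoma markers (7 of 7) summed to 4.59 to 15.4 CPM and T cell markers (5 of 8) to 0.89 to 3.70 CPM over all libraries. The part of these cells in the results below was not tested. In bulk samples fewer cells of a type and less RNA per cell cannot be told apart.

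Between aOX40 and IgG, 11 of the 167 members passed an adjusted p of 0.05 (edgeR quasi-likelihood test, adjusted over all 13278 genes). The 8 that rose in aOX40 were the haem transporter Slc48a1, the zinc transporters Slc30a6 and Slc39a6, the betaine and GABA transporter Slc6a12, the organic cation transporter Slc22a4, the acetyl-CoA transporter Slc33a1, the amino acid transporter Slc7a7 and the scaffold gene Slc9a3r1. The 3 that fell were the phosphate transporter Slc20a1, the mitochondrial phosphate carrier Slc25a3 and the anion transporter Slc26a11. The members' share called, 6.59%, was close to the 5.65% called over all genes tested, so the number of calls does not set the solute carriers apart. By direction, 2.64% of all genes rose and 3.0% fell. The groups did not overlap in 20 members that were higher and 10 that were lower in aOX40, 18.0% of members against 16% of all genes tested (8.22% higher and 7.75% lower), and all 11 called members were among them. When libraries were scaled by total counts alone, 16 members rose and 1 fell, so that 94.1% of the calls were higher against 72.7% in the reported fit. Under that scaling the all-gene median log2 fold change moved up by 0.30. No member was called in either direction without aOX40 replicate 2 or without aOX40 replicate 3, and 5 to 7 were called without any other single library. With the older form of the edgeR test only Slc48a1 and Slc20a1 were called, 1.20% of members against 2.41% of all genes. That form was run first, and the reported form was chosen with its result known.

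Members were split by level, at a mean of 10 CPM. The 62 members with a mean of at least 10 CPM had a median log2 fold change of 0.18, with 2 that rose and 3 that fell, where 174 of all 4974 genes at that level rose and 328 fell. The 105 members under 10 CPM had a median of 0.65, with 6 that rose and 0 that fell, where 177 of all 8304 genes at that level rose and 71 fell. Calls thus leaned higher at low levels and lower at high levels over all genes as well. A low member could pass the count filter through the 3 deeper aOX40 libraries alone: 33 members had 10 counts in fewer than 3 IgG libraries, of which 2, Slc7a7 and Slc33a1, were called, both higher. A separate fit took only the 8821 genes with 10 counts in all 8 libraries, 108 of them members. In that fit the members' median was 0.29, with 6 that rose and 7 that fell. It called 12.0% of members and 10.6% of all its genes. In the reported fit, over all genes tested, the medians were -0.01 at 10 CPM or more and 0.09 below it. Over all levels its median was 0.45 for the members and 0.05 for all genes. The members' median was 0.27 without aOX40 replicate 2. The summed level of all members was 4622, 4498 and 5267 CPM in aOX40 replicates 1 to 3 and 5710, 5612, 5555, 5561 and 6137 CPM in IgG replicates 2 to 6, lower in aOX40 with no overlap. That direction depended on the scaling: with total counts alone the sums were 4934 to 5746 CPM in aOX40 and 4853 to 5520 CPM in IgG, which overlap, with the higher mean in aOX40. The median member was at 5.57 to 5.98 CPM in aOX40 and 3.24 to 4.50 CPM in IgG, and with total counts alone at 5.95 to 7.38 and 2.91 to 4.42 CPM, with no overlap under either scaling.

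**Figure D1:**
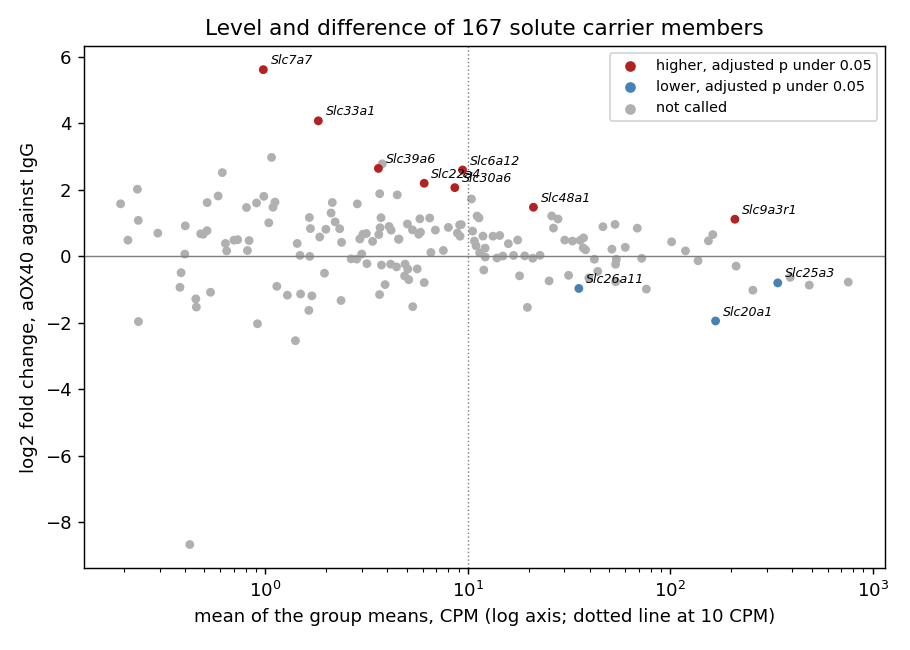
Mean level of each of the 167 members (x axis, mean of the group means in CPM, log axis) against its log2 fold change in aOX40 over IgG (y axis), with the 11 called members coloured by direction and named. The 3 that fell lie right of the dotted line at 10 CPM, and 6 of the 8 that rose lie left of it.

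Of the class of phosphate and vesicular anion carriers (4 tested), 0 rose and 1 fell, which was Slc20a1. The class sum, most of it Slc20a1, was 71.2 to 79.7 CPM in aOX40 and 175 to 435 CPM in IgG. It did not overlap under either scaling. Slc20a1 (chr2:129198764-129211616, GRCm38, plus strand) encodes a sodium-coupled phosphate importer of the plasma membrane. It was at 68.4, 64.1 and 74.2 CPM in aOX40 and at 429, 203, 286, 240 and 172 CPM in IgG. The aOX40 libraries lay close together and all below the lowest IgG library. The means were 68.9 ± 5.06 CPM (SD, n = 3) and 266 ± 101 CPM (SD, n = 5), and edgeR fitted a log2 fold change of -1.95 with SE 0.31 and adjusted p = 0.0114. Slc25a3 (chr10:91116574-91124059, minus strand) brings phosphate into the mitochondrial matrix for ATP synthesis. It belongs to the class of mitochondrial carriers and was placed beside Slc20a1 after both calls were known. It was at 263, 197 and 283 CPM in aOX40 and at 430, 420, 380, 417 and 513 CPM in IgG. Every aOX40 library was below every IgG library, and the log2 fold change was -0.80 with SE 0.20 (edgeR, adjusted p = 0.041). With total counts alone the difference was -0.51 and was not called. The other phosphate importer of the Slc20 family, Slc20a2, was at 0.92 ± 1.10 CPM in aOX40 against 2.06 ± 1.20 CPM in IgG (adjusted p = 0.407). The phosphate exporter Xpr1 was at 17.4 ± 4.59 and 19.0 ± 6.56 CPM (adjusted p = 0.855), with overlapping groups. Exons of Slc20a1 overlap 9830144P21Rik and Gm4430 on the opposite strand. Those were at 4.47 and 3.11 CPM in aOX40 and 8.98 and 3.76 CPM in IgG, far below Slc20a1. Whether reads were counted by strand is not stated in the labels.

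Of the 11 called members, 8 have a promoter in the RefSeq table (GRCm38.p6), and the E-box letters CACGTG, which read the same on both strands, lie upstream of 3 of them: Slc20a1, Slc22a4 and Slc33a1. These are shown because they share that motif, with up to 250 bases before the start of transcription and no transcribed base. Capitals mark CACGTG and, at the end of the Slc20a1 sequence, an adjoining match on the opposite strand to TGCGCNC, the core of the metal response element.
Slc20a1 (chr2:129198523-129198763, plus strand): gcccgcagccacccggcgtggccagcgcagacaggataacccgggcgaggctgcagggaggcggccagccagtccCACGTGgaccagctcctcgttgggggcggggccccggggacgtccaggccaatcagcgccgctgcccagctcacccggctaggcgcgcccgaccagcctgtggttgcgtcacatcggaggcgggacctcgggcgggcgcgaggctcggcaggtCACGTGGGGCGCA
Slc22a4 (chr11:54028105-54028354, minus strand): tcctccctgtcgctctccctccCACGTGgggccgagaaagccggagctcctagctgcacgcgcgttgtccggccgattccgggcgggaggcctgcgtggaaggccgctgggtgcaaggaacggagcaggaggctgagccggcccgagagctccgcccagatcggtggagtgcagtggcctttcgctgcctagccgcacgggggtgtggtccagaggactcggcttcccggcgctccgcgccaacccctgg
Slc33a1 (chr3:63964769-63964983, minus strand): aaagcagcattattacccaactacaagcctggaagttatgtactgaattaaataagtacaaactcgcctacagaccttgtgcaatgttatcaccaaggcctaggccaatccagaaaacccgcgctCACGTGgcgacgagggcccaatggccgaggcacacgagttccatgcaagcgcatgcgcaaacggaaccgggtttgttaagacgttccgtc

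Slc20a1 holds CACGTG at 2 places. The motif was found in 12.7% of 173 promoters of members and in 6.02% of 32851 promoters of the table, both strands searched in the same window. Counted by gene, 21 of the 127 members with a promoter held it. Slc20a1 fell while Slc22a4 and Slc33a1 rose, so the motif was present in called members of both directions. TGCGCNC was in 13.3% of member promoters and 12.5% of all. It was also upstream of 3 of the 8 called genes, which were Slc20a1, Slc25a3 and Slc6a12, so CACGTG was not the only motif shared by 3. The antioxidant response core TGACNNNGC was in 16.2% and 10.2%, with matches at Slc25a3 and at a second, internal start of Slc20a1 (chr2:129206846-129207095) that is not shown. The STAT letters TTCNNNGAA (5.20% and 7.02%) and the interferon-stimulated response element (1.73% and 2.98%) were in none of the 17 windows that the table gives for these 8 genes, some of which have several starts. A match describes letters and shows no binding.

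Among carriers of iron, copper, magnesium and haem (7 tested), 1 rose and 0 fell. Slc48a1 (chr15:97778520-97792692, plus strand) moves haem out of the phagolysosome, the route by which phagocytes recover haem from ingested red cells. Its levels were 27.6, 34.6 and 30.7 CPM in aOX40 and 10.6, 11.8, 16.2, 6.77 and 10.7 CPM in IgG. All aOX40 libraries were above all IgG libraries. The means were 31.0 ± 3.53 and 11.2 ± 3.38 CPM, and edgeR fitted a log2 fold change of 1.47 with SE 0.28 and adjusted p = 0.0191. Its exons share 29 bases with Hdac7 on the opposite strand, which was at 1.80 and 2.53 CPM. The haem exporter Flvcr1, outside the symbol pattern, was at 13.7 ± 2.23 and 27.2 ± 6.63 CPM, with a log2 fold change of -0.98 (adjusted p = 0.0571) that missed the threshold.

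The copper transporters Slc31a1 and Slc31a2, neighbours on chromosome 4, were among the most abundant members. Slc31a1, the high-affinity copper importer, was at 392, 293 and 346 CPM in aOX40 and 797, 541, 409, 565 and 831 CPM in IgG. The groups did not overlap, but the log2 fold change of -0.87 (SE 0.26) missed the threshold (adjusted p = 0.0699, edgeR). With total counts alone the groups of Slc31a1 overlap. Slc31a2 was at 306 ± 41.2 and 476 ± 104 CPM (log2 fold change -0.64, adjusted p = 0.116), with overlapping groups.

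Zinc carriers (15 tested) had 2 members that rose and 0 that fell, with a median log2 fold change of 0.89, the highest of the 14 classes. The log2 fold change was above 0 in 12 of the 15, where 65.9% of all members and 52.2% of all genes tested were above 0. Slc30a1, at 0, 33, 157, 0 and 0 counts in IgG, passed the count filter only with aOX40 libraries. The share and median were not recomputed without such members. The summed level of the 15 was 181 to 229 CPM in aOX40 and 122 to 152 CPM in IgG, with no overlap. Slc30 proteins move zinc out of the cytosol and Slc39 proteins into it. Slc30a6 (chr17:74395608-74424221, plus strand), which works with Slc30a5 in loading zinc into the Golgi, was at 15.0, 14.3 and 12.4 CPM in aOX40 and 4.45, 2.05, 0.99, 2.61 and 6.57 CPM in IgG. It was higher in each aOX40 library than in any IgG library (log2 fold change 2.06, SE 0.42, adjusted p = 0.0248, edgeR). Its partner Slc30a5 was at 5.38 ± 1.49 and 3.76 ± 1.60 CPM (adjusted p = 0.48). Slc39a6, a plasma membrane zinc importer on chromosome 18, was at 5.57, 7.07 and 6.10 CPM in aOX40 and 0, 1.16, 0.30, 0.39 and 3.08 CPM in IgG. The groups did not overlap (log2 fold change 2.64, SE 0.63, adjusted p = 0.036, edgeR). Slc39a4, another importer, was at 36.4 ± 8.24 and 15.5 ± 8.71 CPM without overlap and missed the threshold (log2 fold change 1.21, adjusted p = 0.0897). Slc39a7, which releases zinc from the endoplasmic reticulum and is the most abundant zinc carrier per length, had a log2 fold change of 0.89 (adjusted p = 0.116). Its exons share 2084 bases on the same strand with Gm20427, an overlapping gene with which reads could be shared. Slc30a9 was lower without overlap, at 36.9 ± 4.25 against 50.7 ± 7.44 CPM (adjusted p = 0.209). With total counts alone the groups of Slc30a9 overlap.

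Amino acid carriers (21 tested) had 1 member that rose and 0 that fell, with a median log2 fold change of 0.42. Slc7a7 (chr14:54369442-54417780, minus strand) pairs with Slc3a2 to exchange cationic for neutral amino acids. It was low throughout, with 246, 158 and 53.4 counts in aOX40 and 6, 1, 0, 3 and 0 counts in IgG, or 3.31, 1.77 and 0.66 CPM against 0 to 0.12 CPM. The groups did not overlap, and the log2 fold change was 5.61 (SE 1.30, adjusted p = 0.0467, edgeR). A fold against IgG libraries at or near 0 counts is imprecise. Its exons share 232 bases with Oxa1l on the opposite strand, which was lower in aOX40, at 4.67 against 11.0 CPM (adjusted p = 0.0833).

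Slc3a2, the CD98 heavy chain that brings Slc7 light chains to the surface, was the most abundant member per length, at 215 CPM per kb. It was at 615, 473 and 584 CPM in aOX40 and 1085, 903, 1184, 768 and 847 CPM in IgG. The groups did not overlap, and the log2 fold change of -0.78 (SE 0.20) just missed the threshold (adjusted p = 0.0509, edgeR). The summed level of amino acid carriers, in which Slc3a2 has the largest part, was 953 to 1133 CPM in aOX40 and 1222 to 1426 CPM in IgG. With total counts alone these sums overlapped, at 1038 to 1236 and 1144 to 1360 CPM. Slc7a5, the leucine transporter that pairs with Slc3a2, was at 8.82 ± 3.93 and 5.00 ± 4.20 CPM (adjusted p = 0.442). The glutamine transporters Slc1a5 (13.2 ± 3.57 and 7.92 ± 7.81 CPM, adjusted p = 0.444), Slc38a1 (adjusted p = 0.948) and Slc38a2 (log2 fold change 0.65, adjusted p = 0.366) overlapped between the groups. The arginine transporters Slc7a1 (1.37 ± 1.20 and 3.36 ± 1.62 CPM, adjusted p = 0.235) and Slc7a2 (0.92 ± 0.80 and 0.25 ± 0.56 CPM, adjusted p = 0.405) were low.

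**Figure D2:**
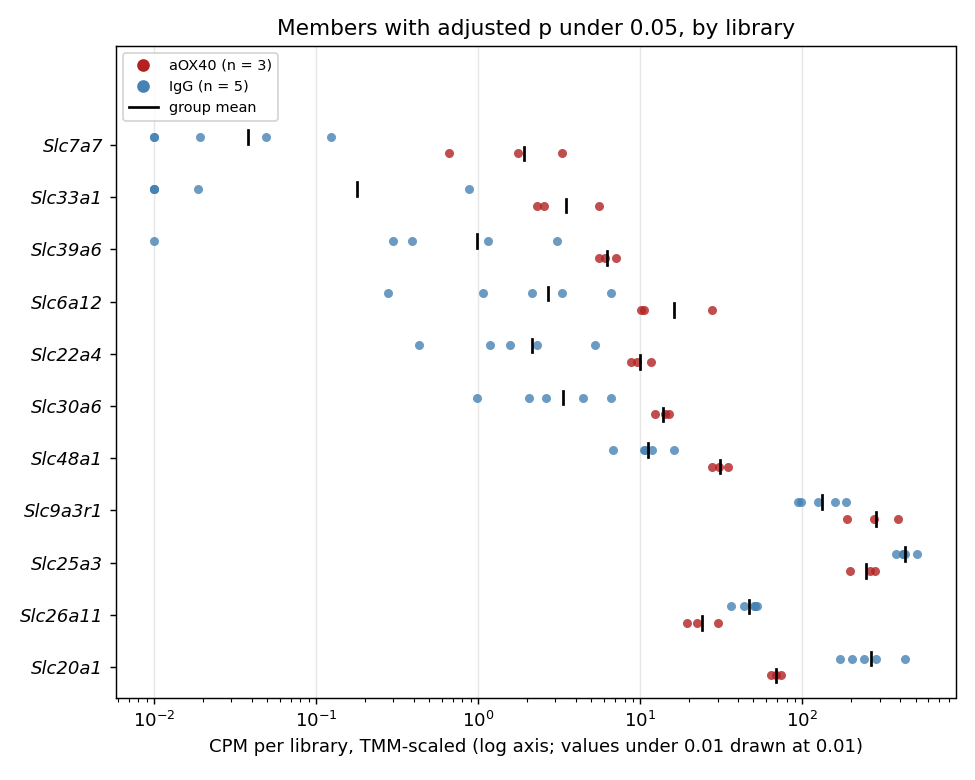
Level of the 11 called members in each library (x axis, CPM, log axis, values under 0.01 drawn at 0.01), with aOX40 in red, IgG in blue and a bar at each group mean. In each of the 11 the red and blue points do not overlap, from Slc7a7 at 0 to 3.31 CPM up to Slc25a3 at 197 to 513 CPM.

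Carriers of neurotransmitters and osmolytes (7 tested) had 1 member that rose and 0 that fell. The median log2 fold change was -0.59, with 5 of the 7 below 0. Slc32a1 was lower without overlap, at 2.82 ± 1.46 CPM in aOX40 against 7.87 ± 2.93 CPM in IgG. It missed the threshold (log2 fold change -1.52, adjusted p = 0.0789, edgeR), and with total counts alone its groups overlap. Slc6a12 (chr6:121343076-121365775, plus strand) takes up betaine, an osmolyte, and GABA. Its levels were 10.5, 27.8 and 10.1 CPM in aOX40 and 1.07, 6.64, 0.28, 3.31 and 2.16 CPM in IgG. Replicate 2 was the highest aOX40 library, and the groups did not overlap (log2 fold change 2.59, SE 0.59, adjusted p = 0.0349, edgeR). The related GABA transporter Slc6a13, its neighbour on chromosome 6, was at 14.4 ± 7.78 and 21.6 ± 9.22 CPM with overlapping groups (log2 fold change -0.59, adjusted p = 0.417). The taurine transporter Slc6a6, the most abundant of the class per length, was at 190 ± 49.0 and 233 ± 20.3 CPM (adjusted p = 0.395).

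Among carriers of organic ions, lipids and acetyl-CoA (8 tested), 2 rose and 0 fell. Slc22a4 (chr11:53983123-54028090, minus strand) takes up ergothioneine and organic cations. It was at 11.7, 8.81 and 9.58 CPM in aOX40 and 0.43, 2.32, 1.56, 1.19 and 5.28 CPM in IgG, without overlap (log2 fold change 2.19, SE 0.49, adjusted p = 0.0324, edgeR). Slc33a1 (chr3:63933507-63964768, minus strand) brings acetyl-CoA into the endoplasmic reticulum. It had 413, 205 and 205 counts in aOX40 and 0, 0, 1, 54 and 0 counts in IgG, or 5.56, 2.30 and 2.56 CPM against 0 to 0.88 CPM. The IgG counts came almost wholly from replicate 5, which was still below every aOX40 library. The log2 fold change was 4.07 (SE 0.94, adjusted p = 0.0238, edgeR), and 10.29 without IgG replicate 5, where the remaining IgG libraries held 1 count in all. The fatty acid carrier Slc27a4, the most abundant of the class per length, was at 117 ± 5.76 and 86.5 ± 26.8 CPM (adjusted p = 0.315).

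Of 33 mitochondrial carriers, 0 rose and 1 fell, which was Slc25a3, while 24 (72.7%) were above 0 and the median log2 fold change was 0.45. Above 0 were also 65.9% of all members and 52.2% of all genes tested. Low carriers such as Slc25a42 (0, 0, 47, 0 and 0 counts in IgG) passed the count filter only with aOX40 libraries. The share and median of the class were not recomputed without them. The ADP/ATP exchanger Slc25a5, the most abundant carrier of the class per length, was at 125 ± 22.1 and 112 ± 31.8 CPM (adjusted p = 0.742), and it has near copies, Gm5529 and Gm5560. The pyrimidine nucleotide carrier Slc25a33 was at 57.1, 52.5 and 87.0 CPM in aOX40 and 17.5, 61.6, 63.4, 69.1 and 60.1 CPM in IgG (adjusted p = 0.704). The mitochondrial iron importer Slc25a37, also an erythroid gene, was at 46.3 to 63.8 CPM in aOX40 and 12.4 to 87.5 CPM in IgG (adjusted p = 0.93). Slc25a24, Slc25a28, Slc25a44 and Slc25a46 were higher in aOX40 without overlap, with log2 fold changes of 0.84, 0.95, 1.21 and 1.15 and adjusted p of 0.105, 0.154, 0.0886 and 0.0962 (edgeR). With Slc25a3, which was lower, the groups did not overlap in 15.2% of the class, against 16% of all genes tested. That share does not set the mitochondrial carriers apart.

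The class of nucleotide sugar carriers holds all 18 tested members of family Slc35. Many carriers of that family supply the Golgi and endoplasmic reticulum for glycosylation, but the substrate of each member was not checked. None of the 18 passed the test, and 15 (83.3%) were above 0 (median log2 fold change 0.68). Over all members 65.9% were above 0, and over all genes tested 52.2%. Low members such as Slc35a1 (0, 0, 0, 19 and 103 counts in IgG) passed the count filter only with aOX40 libraries. The share and median were not recomputed without them. The summed level of the 18 was 272 to 329 CPM in aOX40 and 178 to 232 CPM in IgG, with no overlap. Slc35a5 was at 66.3, 79.2 and 65.5 CPM in aOX40 and 30.9, 46.7, 47.2, 33.0 and 23.8 CPM in IgG. Its groups did not overlap, and the log2 fold change of 0.95 (SE 0.25) just missed the threshold (adjusted p = 0.0509, edgeR). Slc35b2, which moves the sulfate donor into the Golgi, was at 15.97 ± 5.33 and 4.87 ± 3.70 CPM, also without overlap (log2 fold change 1.72, adjusted p = 0.0962).

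**Figure D3:**
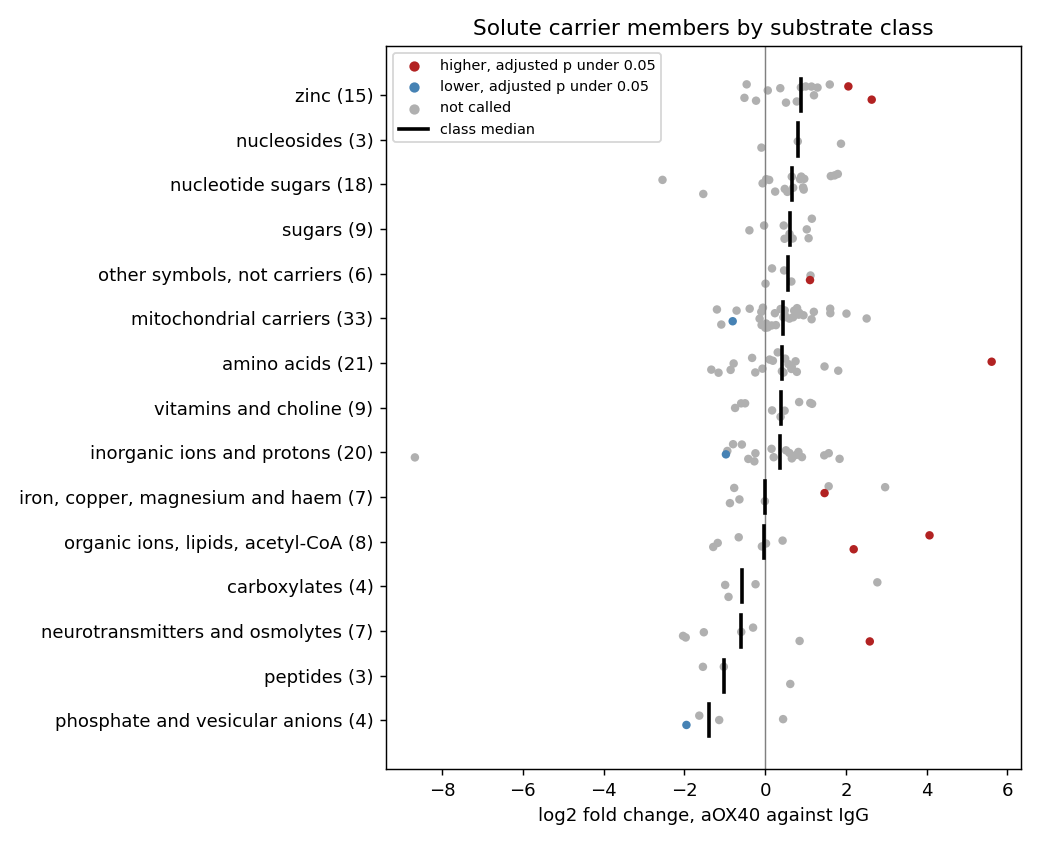
Log2 fold change in aOX40 over IgG (x axis) of each of the 167 members by substrate class (y axis, number tested in brackets), with called members coloured and a bar at the class median. Medians run from 0.89 for zinc carriers to -1.38 for phosphate and vesicular anion carriers, and the point at -8.67 is Slc26a4, at 0 in every aOX40 library.

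None of the sugar carriers (9 tested), carboxylate carriers (4), nucleoside carriers (3), peptide carriers (3) or vitamin and choline carriers (9) passed the test. The sum of sugar carriers, most of it Slc2a6, was 200 to 240 CPM in aOX40 and 98.0 to 193 CPM in IgG. It did not overlap under either scaling. Carboxylate carriers summed to 60.4 to 65.9 CPM in aOX40 and 76.3 to 151 CPM in IgG, which overlapped with total counts alone. The hexose transporter Slc2a6, found in lysosomes of activated macrophages, was at 179 ± 27.6 and 130 ± 33.9 CPM (adjusted p = 0.292). Slc37a2, a sugar phosphate carrier, was at 14.3 ± 0.54 and 9.44 ± 1.15 CPM without overlap (adjusted p = 0.162). The monocarboxylate transporter Slc16a1 was at 2.96, 3.10 and 13.7 CPM in aOX40 and 0.06, 4.32, 0, 0.52 and 0 CPM in IgG, with overlap through IgG replicate 3 (log2 fold change 2.78, adjusted p = 0.103). Slc16a6, of the same family, was lower in aOX40, at 59.9, 52.1 and 41.1 CPM against 115, 75.4, 147, 66.6 and 103 CPM (log2 fold change -0.99, adjusted p = 0.0669, no overlap). With total counts alone the groups of Slc16a6 overlap. Basigin (Bsg), the partner of monocarboxylate transporters, was at 693 ± 234 and 1152 ± 382 CPM (adjusted p = 0.15), and 0 of 10 partner genes tested were called.

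Slc15a3 and Slc15a4 are endolysosomal carriers of histidine and of bacterial muropeptides, ligands of the innate receptors NOD1 and NOD2. Slc15a3 was at 218, 101 and 188 CPM in aOX40 and 227, 264, 336, 456 and 432 CPM in IgG, without overlap, and missed the threshold (log2 fold change -1.02, SE 0.31, adjusted p = 0.0784, edgeR). With total counts alone the groups of Slc15a3 overlap. Slc15a4 was at 17.5 ± 8.67 and 11.2 ± 4.25 CPM, with overlap (log2 fold change 0.62, adjusted p = 0.351). The nucleoside transporter Slc29a1 was at 6.38, 3.53 and 7.40 CPM in aOX40 and 2.73, 1.33, 1.45, 2.33 and 0 CPM in IgG (log2 fold change 1.88, adjusted p = 0.0751, no overlap). Slc28a2, a sodium-coupled purine nucleoside importer, was at 40.8 ± 18.6 and 43.5 ± 8.75 CPM (adjusted p = 0.888) and has a near copy, Gm14085. The choline transporters Slc44a1 (38.2 ± 9.87 and 17.5 ± 7.22 CPM, adjusted p = 0.0821, no overlap) and Slc44a2 (88.2 ± 19.0 and 49.2 ± 20.9 CPM, adjusted p = 0.153) had higher means in aOX40.

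Carriers of protons, sodium, potassium, calcium, chloride and bicarbonate (20 tested) had 0 members that rose and 1 that fell. Slc26a11 (chr11:119355557-119381079, plus strand), a sulfate and chloride transporter, was at 30.0, 22.4 and 19.4 CPM in aOX40 and 43.9, 36.1, 52.9, 50.01 and 50.9 CPM in IgG. The aOX40 libraries were all below the IgG libraries (log2 fold change -0.97, SE 0.24, adjusted p = 0.0419, edgeR). With total counts alone the difference was -0.67 and was not called. Slc26a4, an iodide and chloride exchanger, was at 0 in all aOX40 libraries and at 0 to 2.83 CPM in IgG, where 1 of the 5 libraries was also at 0 (adjusted p = 0.179). The mitochondrial sodium-calcium exchanger Slc8b1, the most abundant of the class per length, was at 55.2 ± 6.45 and 47.7 ± 10.4 CPM (adjusted p = 0.611).

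Slc9a3r1 (chr11:115163341-115181181, plus strand) encodes a scaffold that ties membrane proteins to the actin cytoskeleton through ezrin, and carries a carrier's symbol because it was found with a sodium-proton exchanger. It was at 190, 279 and 387 CPM in aOX40 and 94.3, 158, 125, 98.1 and 185 CPM in IgG. The lowest aOX40 library lay just above the highest IgG library. The means were 285 ± 98.8 and 132 ± 39.1 CPM, and edgeR fitted a log2 fold change of 1.11 with SE 0.29 and adjusted p = 0.0475. It was the 1 called of the 6 members that are not carriers.

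Transporters of the superfamily whose symbols lie outside the pattern were counted from a list of 58, of which 36 were in the table and 30 were tested. Of these 30, 2 rose and 0 fell, where 2.64% of all genes tested rose and 3.0% fell. So few calls do not set this list apart. Tmem165, a Golgi manganese and calcium transporter needed for glycosylation, was at 59.7 ± 8.78 CPM in aOX40 against 24.9 ± 4.29 CPM in IgG (log2 fold change 1.26, SE 0.22, adjusted p = 0.0149, edgeR). Mfsd5 was at 92.2 ± 8.25 and 39.7 ± 10.3 CPM (log2 fold change 1.21, SE 0.24, adjusted p = 0.0208, edgeR).

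Per length of exon, the 10 most abundant members were Slc3a2 (215 CPM per kb), Slc31a2 (193), Slc31a1 (114), Slc9a3r1 (108), Slc25a5 (72.2), Slc25a3 (61.2), Slc2a6 (48.1), Slc15a3 (46.6), Slc25a33 (31.8) and Slc20a1 (30.0), all in mean CPM per kb. Of these 10, 3 were called: Slc9a3r1 rose, and Slc25a3 and Slc20a1 fell. The transporters that rose were all lower in the order, with Slc48a1 the highest of them at 7.67 CPM per kb.

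**Figure D4:**
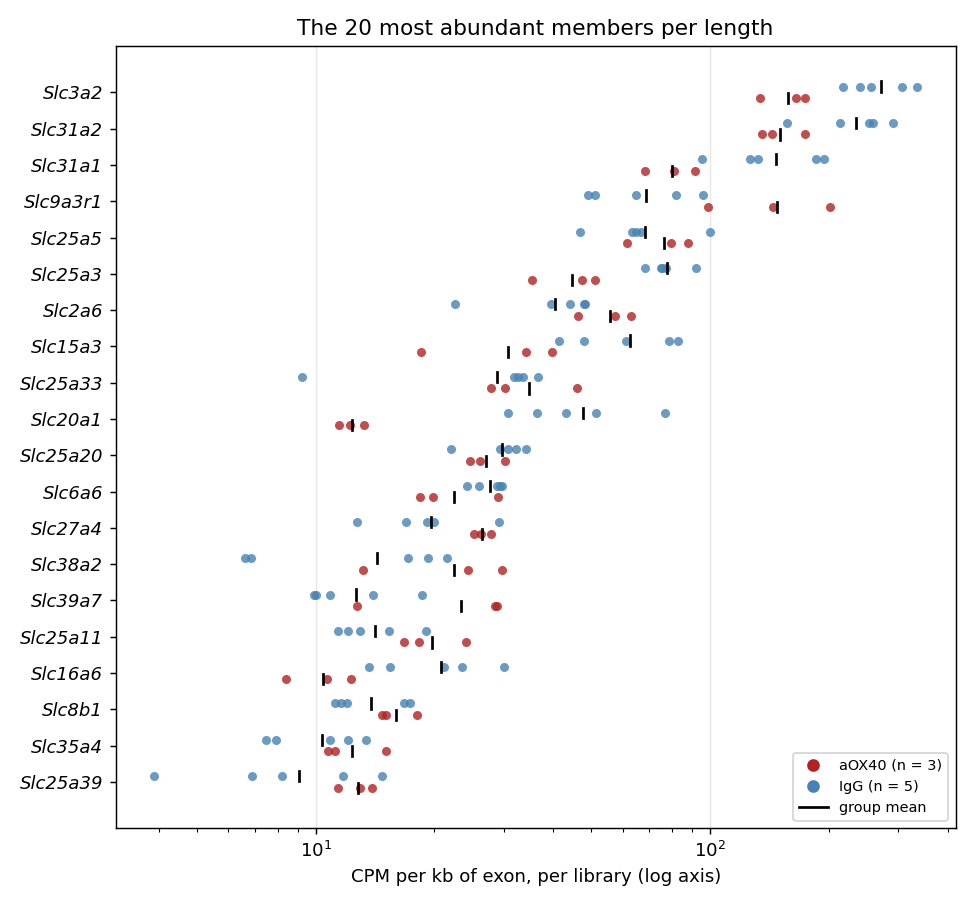
Level per length of the 20 most abundant members in each library (x axis, CPM per kb of exon, log axis), with aOX40 in red, IgG in blue and a bar at each group mean. Slc20a1 shows the widest gap between the groups, and Slc3a2 is at the top in both.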

How the data were processed

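Per the submitters' processing notes, the authors used STAR 2.6.0, Subread and featureCounts 1.5.1 with mm10. The deposited gene table holds estimated counts: 63.4% of its values are whole within 0.01, and no note says how the fractions arose. Counts were rounded, filtered by group with filterByExpr and scaled by TMM, and the groups were compared with the edgeR 4.0.16 quasi-likelihood test (R 4.3.3), with Benjamini-Hochberg adjustment over 13278 genes. The bias-adjusted form of that test was used. Its older form, the default of that version, was run first and called 320 genes. That smaller number was known when the choice was made. DESeq2 1.42.0, limma 3.58.1, other scalings and filters, and leaving out each library were alternatives. Positions and exon lengths come from GENCODE M21 (GRCm38), which placed 165 of 167 members; near copies were searched with BLAST+ 2.17.0 at 95% identity over 50% of a transcript. Members and lists were chosen with earlier results of these data known. Members named by rule were every called one, the most abundant per length overall and in each class, the smallest p of each larger class with no call, and leukocyte transporters listed by name, 45 in all. Slc20a2, Slc30a5, Slc30a9, Slc26a4, Slc32a1, Slc35b2, Slc25a24, Slc25a28, Slc25a44, Slc25a46, Xpr1 and Flvcr1 were added after their values were seen. Depth per library was 52.7 to 73.5 M counts (M, mega).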

Additional observations from a re-analysis of the deposited data

Results flagged for a closer look

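Of 45 named members, 6 had 1 IgG library far from the other 4. The rule used flags about 1 in 20 groups where values are normally distributed. Levels in CPM are skewed and some are 0, so 6 of 45 cannot be set against that rate. The level of Slc16a1 in IgG replicate 3 was 4.32 CPM against 0 to 0.52 CPM in the others. Slc1a5 was at 21.4 CPM in the same library against 2.94 to 8.0 CPM. In IgG replicate 5, Slc17a5, the lysosomal sialic acid exporter, was at 6.83 CPM against 1.04 to 2.43 CPM, and Slc33a1 at 0.88 CPM against 0 to 0.02 CPM. Slc25a33 was low in IgG replicate 2, at 17.5 CPM against 60.1 to 69.1 CPM. Slc7a2 was at 1.26 CPM in IgG replicate 6 and at 0 in the other 4.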

How the results depend on the processing

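Of 18 alternatives, all gave a value for 8 of the called members and 17 for Slc33a1, Slc39a6 and Slc7a7, which were not tested with 10 counts required in all 8 libraries. No called member changed direction in those. Slc20a1 and Slc48a1 were each called in 15, and were lost only with the replicate block and without aOX40 replicate 2 or 3; Slc7a7 (5), Slc39a6 and Slc9a3r1 (6 each), Slc25a3 (7), Slc26a11 (8), Slc6a12 (9), Slc22a4 (10), Slc33a1 (11) and Slc30a6 (12) were called less often (with 16 adjusted p-values each for Slc33a1 and Slc7a7). Members that rose and fell, and all genes called, were 6, 7 and 932 with 10 counts required in all 8 libraries. They were 9, 9 and 1433 by DESeq2. The older edgeR method gave 1, 1 and 320. It was run first and became an alternative after its result was seen. With total counts alone the numbers were 16, 1 and 1120 (median 0.76). Sums were also recomputed with total counts alone, an alternative added after seeing the data. With no filter the numbers were 6, 1 and 452. Leaving out each library gave 0 to 6 that rose, 0 to 3 that fell and 0 to 589 genes in all (reported: 8, 3 and 750). Without aOX40 replicate 2 the edgeR count of 0 came with 28 members at an unadjusted p under 0.05; without aOX40 replicate 3, 33 members were under it and 59 genes were called. Only numbers 2 and 3 are shared by the groups. Deviations from the group means correlated with r of 0.022 and 0.047 in same-numbered libraries. In libraries with unlike numbers r ran from -0.044 to 0.031. With so few libraries these values cannot show whether the numbers pair the samples, and the labels do not say. The replicate block gave 0, 0 and 0, with 48 members at an unadjusted p under 0.05.

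Some uncalled members turned direction. Slc10a3 was at -0.038 with upper quartile factors. With total counts alone Slc25a37, Slc28a2, Slc37a3 and Slc38a1 were at 0.18, 0.21, 0.28 and 0.20, and with the replicate block at 0.59, 0.10, 0.26 and 0.25. By limma voom Slc25a37 and Slc38a1 were at 0.20 and 0.16, and Slc37a3 was at 0.0058 with 10 counts in all 8 libraries. Leaving out each library gave -0.12 to 0.22 for Slc10a3, -0.057 to 1.11 for Slc17a5, -0.35 to 0.13 for Slc25a37, -0.49 to 0.18 for Slc28a2, -0.17 to 0.17 for Slc37a3 and -0.28 to 0.18 for Slc38a1. Where a call was lost, the cause was not tested. Slc7a7 and Slc33a1 had IgG libraries at 0 counts, and the part of depth in this was not tested.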
